A study of Mus musculus with 6 samples.

Results

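The matrilins and a group of small secreted cartilage proteins were followed in the intervertebral disc (IVD) transcriptome, using the 8 genes Matn1, Matn2, Matn3, Matn4, Chad, Ucma, Cytl1 and Scrg1 of the 43472 gene symbols counted in each library. They were chosen by name, as the whole matrilin family and 4 secreted proteins typical of cartilage, with earlier results of these data known. All 8 passed the filter on low counts that left 16152 genes to test. RNA was measured in 6 libraries from postnatal day 20 mice of the strain given as C57B6/J. In the 3 mutant libraries, floxed Adgrg6 (Adgrg6 f/f, Gpr126 f/f in the sample titles) was recombined by Col2Cre. The 3 control libraries are called wild type in the genotype labels and Col2Cre Control in the titles, and the study's methods describe controls as Cre (-) littermates. Each library is a pool of thoracic and lumbar discs from 2 to 3 mice, no sex is given, and Col2Cre recombines in all parts of the disc and also in the periosteum and trabecular bone of the vertebral body. In such bulk samples, fewer cells of a type and less RNA per cell cannot be told apart.

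Matrilins are oligomeric adaptor proteins of the extracellular matrix, built of von Willebrand factor A domains, EGF-like domains and a coiled coil that joins the chains. They bind collagen fibrils, aggrecan and COMP and so link the fibrillar and the proteoglycan networks of cartilage. Matn1 and Matn3 are largely restricted to cartilage, whereas Matn2 and Matn4 are found in many connective tissues. Chad encodes chondroadherin, a leucine-rich repeat protein that binds collagen and integrin on the chondrocyte surface. Ucma encodes a vitamin K-dependent Gla-rich protein of cartilage, Cytl1 a cytokine-like protein of chondrocytes, and Scrg1 a small secreted protein of mesenchymal and cartilage cells.

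Counts on genes were 9061491 to 12017008 per library, which was 40.4% to 44.2% of the reads listed, and no libraries within a group agreed within sampling noise. Adgrg6, listed as Gpr126, differed by a log2 fold change of 0.17 between mutant and control (unadjusted p = 0.367), and these counts cover the whole gene, so they do not measure the deleted part. Markers of chondrocytes were abundant in every library, at a summed 75902 to 130948 CPM (counts scaled to a common library total) in control and 110529 to 136924 CPM in mutant libraries. Control library 1 stood apart from the rest in skeletal muscle markers, with a summed 3308 CPM against 60.1 to 136 CPM in the other 5 libraries. All 5 muscle markers were lower in mutant libraries at an unadjusted p under 0.05 with this library, and 0 were lower and 3 higher without it.

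Mutant and control discs were then compared gene by gene with the quasi-likelihood test of edgeR. At an unadjusted p under 0.05, the transcripts of Matn3, Matn4 and Ucma were lower and that of Matn2 was higher in mutant discs, by factors between 1.42 and 1.72. Matn1, Chad, Cytl1 and Scrg1 did not pass. The 3 lower and 1 higher of 8 members compare with 4.32% of all genes tested lower and 2.89% higher at this threshold. As the members were chosen with earlier results of these data known, no test was made over the list. None of the 8 passed after Benjamini-Hochberg adjustment in edgeR, where 0.00619% of all genes did, which is 1 gene. With DESeq2, 4 members passed the unadjusted threshold (all genes, 6.07%) and none passed the adjusted threshold (all genes, 0.267%), and with limma-voom these numbers were 5 (all genes, 9.14%) and 0 (all genes, 0.0%). The 3 lower and 1 higher became 4 lower and 0 higher with library sizes in place of TMM (all genes in either direction, 7.57%), and 2 lower and 0 higher with scaling to 4 cartilage genes (Col2a1, Acan, Hapln1 and Sox9; all genes, 5.65%). No member passed without mutant library 2 (all genes, 9.76%) or without mutant library 3 (all genes, 5.1%). The number was 2 without control library 1 (all genes, 14.1%) and 2 without control library 2 (all genes, 5.59%). The log2 fold change was below 0 for 7 members and above 0 for 1, with a median of -0.43 beside -0.01 over all genes tested. All mutant libraries lay below all control libraries for 2 members, Matn3 and Ucma (all genes, 5.96%).

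**Figure D1:**
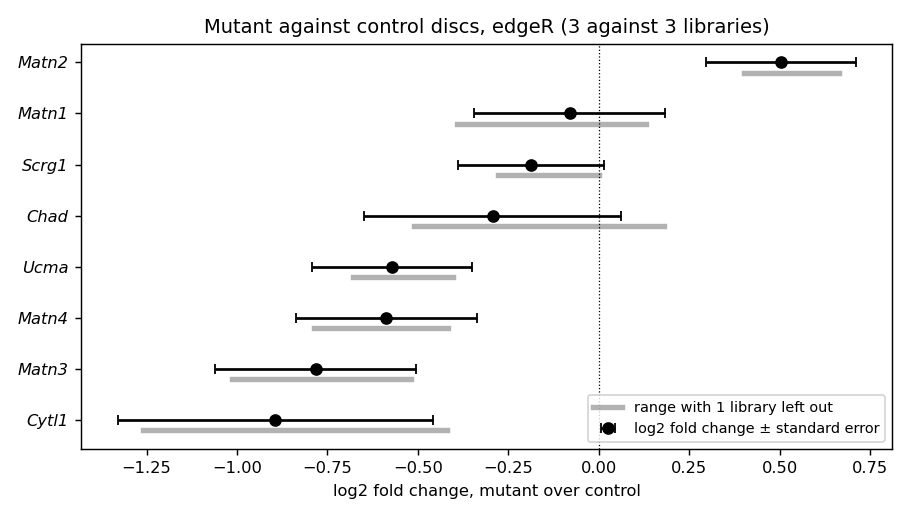
Log2 fold change of mutant over control (horizontal axis) for each of the 8 genes, from the edgeR fit of 3 control and 3 mutant libraries. Points and black bars are the estimate and its standard error, and grey bars span the estimates with 1 library left out. Matn3, Matn4 and Ucma lie below 0 and Matn2 above 0 at an unadjusted p under 0.05, and no gene passed the adjusted threshold.

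The matrilins are taken first. Matn3, the cartilage matrilin whose human counterpart is mutated in a form of multiple epiphyseal dysplasia, lies at chr12:8947929-8972028 on the plus strand (GRCm38). Its level was 688.6, 475.2 and 411.6 CPM in control libraries 1, 2 and 3 and 407.9, 285.7 and 222.2 CPM in mutant libraries 1, 2 and 3. Every mutant library was below every control library, although mutant library 1 lay just under control library 3. The means were 525 ± 145 CPM in control and 305 ± 94.4 CPM in mutant libraries (SD, n = 3 each), a log2 fold change of -0.78 with a standard error of 0.28 (edgeR, unadjusted p = 0.0178, adjusted p = 0.676). The log2 fold change was -0.52 without control library 1 (edgeR, unadjusted p = 0.0769), -0.60 without mutant library 3 (unadjusted p = 0.0810) and -0.72 without mutant library 2 (unadjusted p = 0.0559).

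Matn4, a broadly expressed matrilin at chr2:164389393-164405160 on the minus strand, had 148.5, 137.7 and 85.7 CPM in control and 101.6, 82.9 and 62.7 CPM in mutant libraries. The groups overlapped, since control library 3 was below mutant library 1. The log2 fold change of -0.59 with a standard error of 0.25 passed only before adjustment (edgeR, unadjusted p = 0.0403, adjusted p = 0.684), and leaving out control library 1 or 2 or mutant library 2 or 3 raised the unadjusted p to between 0.0826 and 0.158. Matn4 and Rbpjl on the opposite strand share 149 exon bases, with 451 counts on Rbpjl in all libraries against 6223 on Matn4, and Rbpjl had a log2 fold change of -0.30 (edgeR, unadjusted p = 0.449).

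Matn2 is the longest of the 4 genes, at chr15:34306677-34436273 on the plus strand, and its protein is found in connective tissue sheaths and peripheral nerve as well as in cartilage. It had 145.0, 208.5 and 175.0 CPM in control and 205.1, 281.5 and 262.0 CPM in mutant libraries. Mutant library 1 lay just below control library 2, and the other mutant libraries were above all controls. The means were 176 ± 31.8 and 250 ± 39.7 CPM, a log2 fold change of 0.50 with a standard error of 0.21 (edgeR, unadjusted p = 0.0355, adjusted p = 0.676). The unadjusted p was above 0.05 without control library 1 or 3 or mutant library 2 or 3 (0.0754 to 0.0959), with library sizes in place of TMM scaling (0.111) and with scaling to cartilage genes (0.0610). Matn2 shares 70 exon bases with 9430069I07Rik on the opposite strand, which had 834 counts in all libraries against 13190 for Matn2 and a log2 fold change of 0.59 (edgeR, unadjusted p = 0.0909).

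Some markers of other cells also passed the unadjusted threshold, while with all libraries the summed level of every marker list overlapped between the groups. Of 6 annulus and tendon markers, 3 (Col1a1, Thbs4 and Tnmd) were higher in mutant libraries at an unadjusted p under 0.05 and none lower. Scx (log2 fold change 0.47, edgeR unadjusted p = 0.190), Fmod (0.32, unadjusted p = 0.285) and Mkx (-0.009, unadjusted p = 0.973) did not pass. Col1a1 (3879 to 12862 CPM in control and 11537 to 20231 CPM in mutant libraries) was the largest part of the summed level in every library. The summed level was 6763 to 16889 CPM in control and 15305 to 25262 CPM in mutant libraries. Without control library 1 the controls reached 12142 CPM, below every mutant library, and 3 of the 6 were again higher. Of 5 neuron and glia markers, 2 were higher and none lower, with a summed 201 to 1628 CPM in control and 831 to 3537 CPM in mutant libraries. Of 5 neutrophil markers, 2 were higher (a summed 8.24 to 29.2 CPM in control and 24.7 to 103 CPM in mutant libraries), as was 1 of 5 macrophage markers (48.2 to 66.4 and 59.9 to 116 CPM) and 1 of 5 erythroid markers (19.3 to 172 and 118 to 266 CPM), with none lower. Mutant library 1 alone gave the upper neutrophil and macrophage values. Mutant libraries 2 and 3 had 36.0 and 24.7 CPM of neutrophil and 59.9 and 63.2 CPM of macrophage markers. The upper erythroid value was that of mutant library 2, against 152 CPM in mutant library 1 and 118 CPM in mutant library 3. Of 5 osteoblast markers 1 was lower and 1 higher, and 0 of 6 nucleus pulposus and 0 of 5 endothelial markers were lower or higher. Without control library 1, where 14.1% of all genes passed in either direction, 4 of 5 erythroid and 4 of 5 endothelial markers were higher and 0 lower, and of the osteoblast markers 1 was lower and 2 higher. No marker in any of these lists was at 0 in all libraries, and their part in the Matn2 result was not tested.

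Matn1, the other matrilin restricted to cartilage, at chr4:130944385-130955475 on the plus strand, was the least abundant member. It had 34.0, 26.5 and 24.2 CPM in control and 38.2, 19.1 and 23.0 CPM in mutant libraries, so that the highest and the lowest library were both mutant. Its log2 fold change was -0.08 with a standard error of 0.26 (edgeR, unadjusted p = 0.763), and its sign turned when control library 1, mutant library 2 or mutant library 3 was left out.

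The balance among the matrilins was described from the same counts, divided by the merged length of all annotated exons of each gene in GENCODE M21. This is not the length of a single transcript, and the shares depend on it. Matn3 made up 71.9 ± 4.41% of the summed matrilin level per exon length in control and 58.6 ± 6.32% in mutant libraries (SD, n = 3 each). Matn2 made up 12.2 ± 3.84% and 24.4 ± 7.53%, whereas the shares of Matn4 (8.57% to 11.5% in control and 8.71% to 9.69% in mutant libraries) and Matn1 (5.72% to 6.27% and 5.77% to 9.24%) overlapped between the groups. Of the summed Matn2 and Matn3 counts, not divided by length, Matn2 held 17.4% in control library 1 (95% Wilson interval 16.6% to 18.3%), 30.5% in control library 2 (29.4% to 31.7%) and 29.8% in control library 3 (28.8% to 30.9%). It held 33.5% in mutant library 1 (32.2% to 34.7%), 49.6% in mutant library 2 (48.5% to 50.8%) and 54.1% in mutant library 3 (52.7% to 55.6%). The ranges of control and mutant libraries did not overlap, and these intervals cover counting error only. The log2 ratio of Matn2 to Matn3 counts was higher by 1.30 in mutant libraries, from 0.95 without control library 1 to 1.67 without mutant library 1. This pair was chosen with the results known, and Matn3 alone already lay below every control in every mutant library. As the ratio is built from the values just described, it was not tested.

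**Figure D2:**
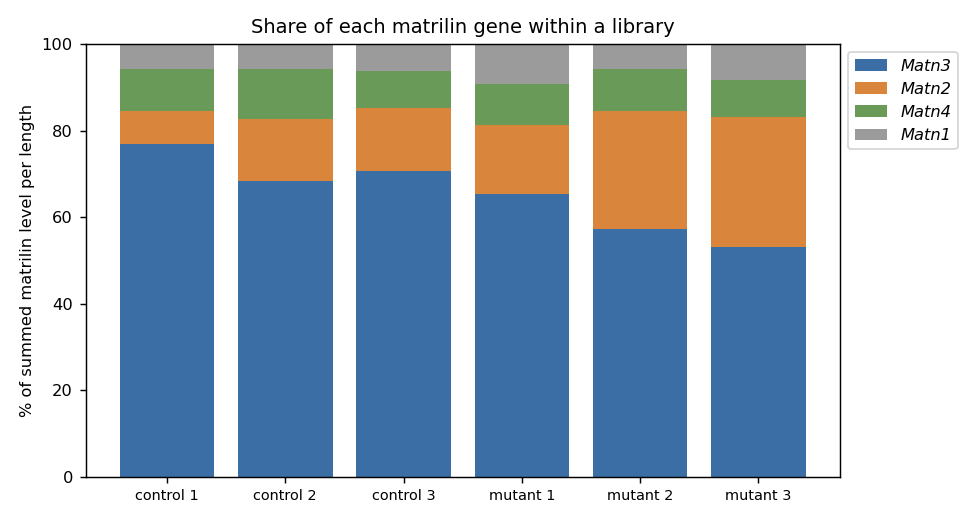
Share of each matrilin in the summed matrilin level (CPM per kb of exon, percent) in each of the 6 libraries. Matn3 holds the largest share in all libraries, at 68.3% to 76.8% in control and 53.0% to 65.4% in mutant libraries, and Matn2 holds 7.79% to 14.5% and 15.8% to 30.1%.

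Of the secreted proteins, Ucma lies at chr2:4976122-4985748 on the plus strand and had 780.8, 1180 and 917.2 CPM in control and 676.7, 618.8 and 641.3 CPM in mutant libraries. All mutant libraries were below all controls and lay close to each other. The means were 960 ± 203 and 646 ± 29.2 CPM (SD, n = 3 each), a log2 fold change of -0.57 with a standard error of 0.22 (edgeR, unadjusted p = 0.0269, adjusted p = 0.676). The unadjusted p was above 0.05 without control library 2 or any 1 mutant library (0.0573 to 0.115) and with scaling to cartilage genes (0.0665).

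Cytl1, at chr5:37735519-37739820 on the plus strand, had 1933, 7856 and 5237 CPM in control and 2383, 2658 and 3047 CPM in mutant libraries. Control library 1 was the lowest of all libraries, and the other controls were above every mutant library. The means were 5009 ± 2968 and 2696 ± 334 CPM. The log2 fold change of -0.89 had a standard error of 0.44 (edgeR, unadjusted p = 0.0669, adjusted p = 0.704), and it was the largest in size among the 8 genes in this fit. Without control library 1, the library with the muscle transcripts, it was -1.26 (edgeR, unadjusted p = 0.00192, adjusted p = 0.102), and without control library 2 it was -0.42 (unadjusted p = 0.324). Matn3 had the larger change with the replicate block (-0.793 against -0.685 for Cytl1) and without control library 2, control library 3 or mutant library 1. Cytl1 passed the unadjusted threshold with library sizes in place of TMM (edgeR, unadjusted p = 0.0442), without the filter on low counts (unadjusted p = 0.0150, where 8.62% of all genes passed) and with limma-voom (unadjusted p = 0.0306).

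Scrg1, at chr8:57455923-57477585 on the plus strand, had 150.3, 224.3 and 162.7 CPM in control and 143.4, 170.0 and 158.2 CPM in mutant libraries. The groups overlapped, and the log2 fold change of -0.19 with a standard error of 0.20 did not pass (edgeR, unadjusted p = 0.371). It was 0.001 without control library 2, the highest library.

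Chad lies at chr11:94565047-94569127 on the plus strand, wholly inside Acsf2, a gene for an acyl-CoA synthetase on the minus strand at chr11:94557102-94601871. Chad had 3164, 7707 and 3882 CPM in control and 3901, 3683 and 4453 CPM in mutant libraries. Control library 2 was far above the other 5, which overlapped, and the log2 fold change was -0.29 with a standard error of 0.35 (edgeR, unadjusted p = 0.426). It turned to 0.18 without control library 2 (edgeR, unadjusted p = 0.545).

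The Chad values carry a further limit. The counts of Acsf2 were 1.03 to 1.06 times those of Chad in every library, with 281471 against 269961 counts in all, although the exons of these genes share 0 bases in GENCODE M21. The strand setting of the count is not given in the sources used here, so reads of Chad and Acsf2 cannot be told apart with certainty. Acsf2 had a log2 fold change of -0.31 (edgeR, unadjusted p = 0.397), and the genes summed one of -0.30 (edgeR, unadjusted p = 0.436).

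**Figure D3:**
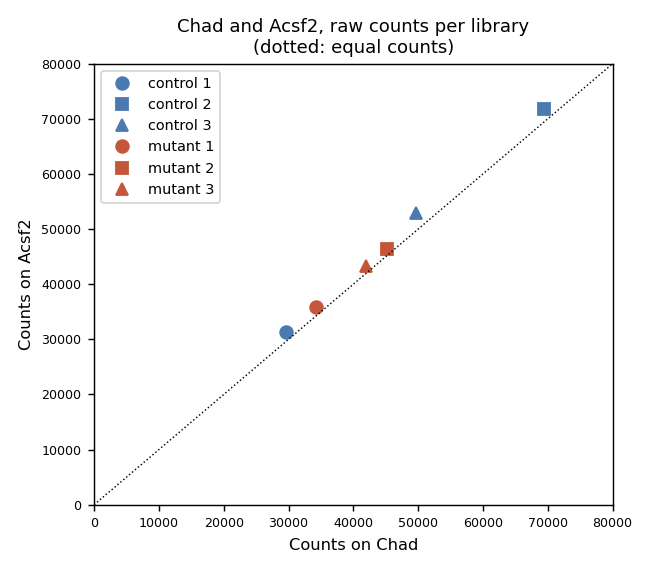
Counts of Acsf2 (vertical axis) against counts of Chad (horizontal axis), raw counts with 1 point per library and a dotted line of equal counts. All 6 libraries lie just above the line, at ratios of 1.03 to 1.06.

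**Figure D4:**
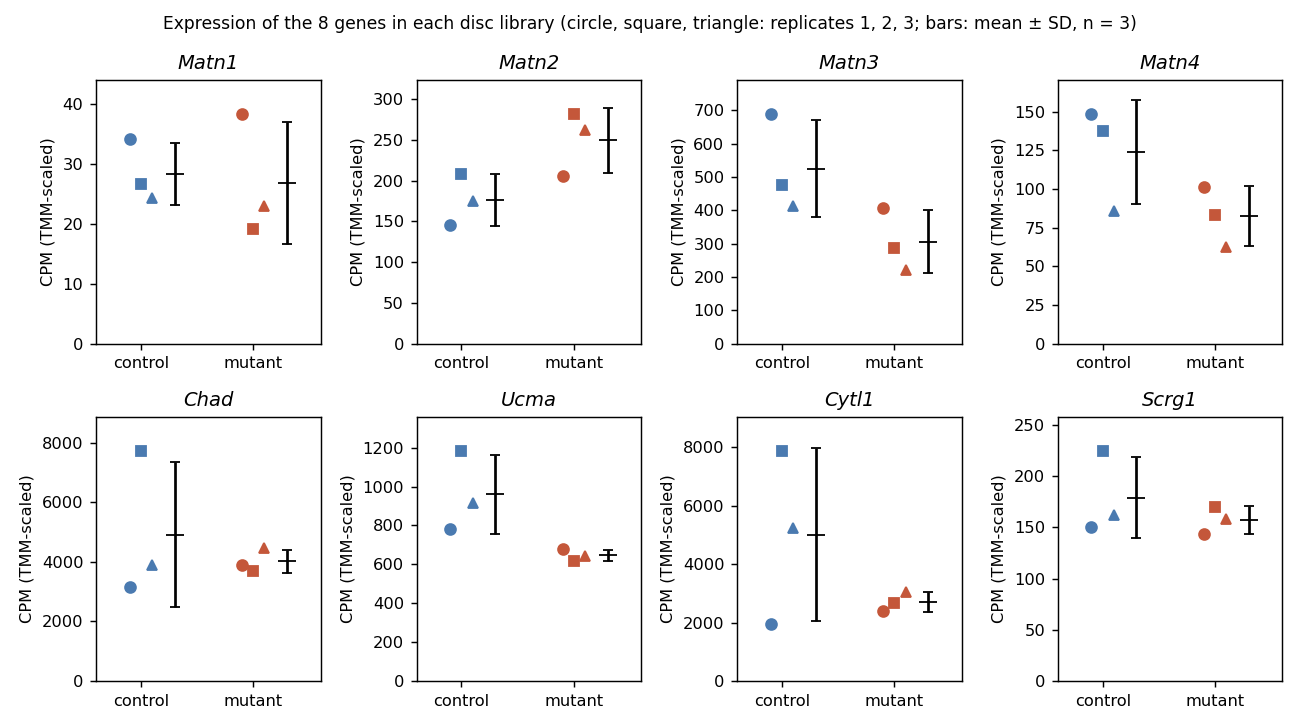
Level of each of the 8 genes in each library (CPM, 1 panel a gene with an axis of its own from 0), with circle, square and triangle for libraries 1, 2 and 3 and bars for the mean and SD of each group (n = 3). Mutant libraries lie below all controls for Matn3 and Ucma, and the control libraries of Cytl1 and Chad are spread more widely than the mutant libraries.

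For Matn3, Matn4 and Ucma, the members that were lower, the 250 bases before an annotated start are shown to place the letters of common promoter motifs. The sequences are from RefSeq on GRCm38.p6, 5′ to 3′ on the strand of the gene, at chr12:8947679-8947928 (plus strand), chr2:164405161-164405410 (minus strand, the outer of 2 listed Matn4 starts) and chr2:4975872-4976121 (plus strand), and capitals mark motif matches.
Matn3: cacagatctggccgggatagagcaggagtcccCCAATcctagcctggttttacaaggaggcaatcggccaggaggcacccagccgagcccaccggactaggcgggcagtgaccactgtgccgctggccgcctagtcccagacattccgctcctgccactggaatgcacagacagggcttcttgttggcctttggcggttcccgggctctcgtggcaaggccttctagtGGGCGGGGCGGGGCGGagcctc
Matn4: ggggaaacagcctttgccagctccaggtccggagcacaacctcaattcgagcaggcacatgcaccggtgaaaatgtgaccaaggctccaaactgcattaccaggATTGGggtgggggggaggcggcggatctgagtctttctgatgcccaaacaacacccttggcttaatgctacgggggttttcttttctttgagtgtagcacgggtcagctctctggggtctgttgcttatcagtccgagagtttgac
Ucma: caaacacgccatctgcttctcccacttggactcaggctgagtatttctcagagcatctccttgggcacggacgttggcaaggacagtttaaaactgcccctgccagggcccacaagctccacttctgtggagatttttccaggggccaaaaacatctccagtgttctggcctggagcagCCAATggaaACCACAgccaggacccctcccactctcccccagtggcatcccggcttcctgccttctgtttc
The motifs searched on both strands were ACAAAG and ACAATG (SOX factors), TGTGGT and TGCGGT (RUNX factors), TTCNNNGAA (STAT factors), the core promoter motif TATAAA, the Sp1-type motif GGGCGG and the NF-Y-type motif CCAAT. Matn3 held 3 copies of GGGCGG from base -22 to -7 relative to the start, in which neighbouring copies share 1 base, and CCAAT at -218 to -214. Matn4 held CCAAT on the other strand, read as ATTGG, at -146 to -142. The inner Matn4 start, whose sequence is not shown, had no CCAAT and had GGGCGG on the other strand, read as CCGCCC, at -6 to -1, so the motifs depend on the start chosen. Ucma held CCAAT at -71 to -67 and TGTGGT on the other strand, read as ACCACA, at -62 to -57. These are common letters, since GGGCGG was present in 32.7%, CCAAT in 33.9% and TGTGGT in 14.1% of the 32851 promoters of this length. ACAAAG (16.5% of promoters), ACAATG (10.7%), TGCGGT (5.10%), TTCNNNGAA (7.02%) and TATAAA (12.4%) were not found in these 3 windows. The table held promoters of 6 of the 8 members.

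The members spanned a wide range of abundance per length. In control libraries the order by mean CPM per kb of exon was Cytl1 (4743 ± 2810), Chad (2927 ± 1454), Ucma (1085 ± 230), Scrg1 (256 ± 56.6), Matn3 (174 ± 48.1), Matn2 (28.1 ± 5.07), Matn4 (24.0 ± 6.49) and Matn1 (14.1 ± 2.56; SD, n = 3). The ranges of the neighbours Cytl1 and Chad, Scrg1 and Matn3, Matn2 and Matn4, and Matn4 and Matn1 overlapped, and those of the other neighbours did not. Without control library 1 the order was the same and no neighbours overlapped. Without control library 2 or 3, Cytl1 and Chad, Scrg1 and Matn3, and Matn2 and Matn4 still overlapped. Leaving out a library can only narrow a range or keep it. The order of means was the same in mutant libraries, where only Cytl1 (2553 ± 316) and Chad (2388 ± 236) and Matn4 (15.9 ± 3.76) and Matn1 (13.4 ± 5.06) overlapped as neighbours. Every secreted protein gene was on average above every matrilin gene per length, and Matn3 was the most abundant matrilin per length in every library, although Matn2 had more CPM than Matn3 in mutant library 3. For reference, Col2a1 had 10242 ± 2999, Acan 691 ± 58.9 and Sox9 124 ± 23.7 CPM per kb in control libraries. The 8 genes held 0.691%, 1.77% and 1.24% of gene counts in control and 0.700%, 0.795% and 0.861% in mutant libraries, so that the groups overlapped only through control library 1, and of these Chad and Cytl1 held most.

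**Figure D5:**
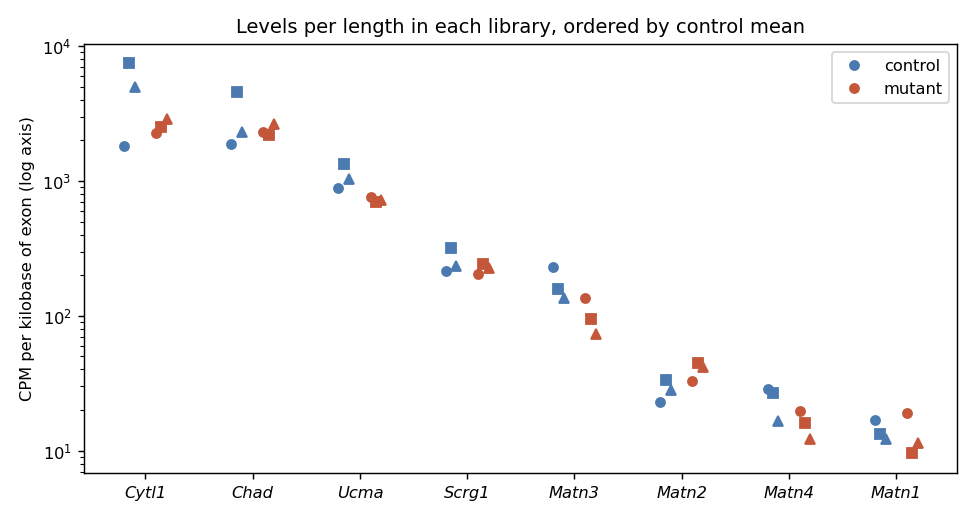
Level of the 8 genes per exon length (CPM per kb, log axis), with 1 point for each of the 3 control and 3 mutant libraries. The means of the 4 secreted protein genes lie above those of the 4 matrilins in both groups.

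Spread between libraries of one group also differed among the members. Cytl1 varied 4.06-fold between the highest and the lowest control library, more than 99.0% of genes with at least 50 CPM, and Chad 2.44-fold, more than 97.6%. The median gene varied 1.32-fold. In the mutant libraries Cytl1 varied 1.28-fold, Chad 1.21-fold and Ucma 1.09-fold, beside 1.33-fold for the median gene, whereas Matn3 varied 1.84-fold and Matn4 1.62-fold. Without control library 1, Cytl1 varied 1.5-fold, more than 91.5% of genes, and Chad 1.99-fold, more than 98.1%, and without control library 2 Cytl1 varied 2.71-fold, more than 99.1% of genes, and Chad 1.23-fold, more than 53.4%. Without control library 3, Cytl1 varied 4.06-fold and Chad 2.44-fold, as with all controls. Whether spread differed between the groups was not tested.

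Across the 6 libraries, Pearson correlations of log2 CPM, given as a description without a test, linked some members and not others. Matn3 and Matn4 varied together (r = 0.93) and Matn2 ran opposite to Matn3 (r = -0.90), while Cytl1 ran with Chad, Scrg1 and Ucma (r = 0.83 to 0.84) and had r = -0.01 with Matn3. Over the 5 libraries without control library 1, Cytl1 and Matn3 had r = 0.59, Matn2 and Matn3 r = -0.80, and Matn3 and Matn4 r = 0.89. These 6 points share library preparation, depth and the difference in genotype. Among genes of at least 50 CPM, the pattern most like Matn3 was that of Mtus1 (r = 0.996) and Enah (0.995), most like Matn2 that of Lamp1 (0.973) and Timp2 (0.972), and most like Cytl1 that of S100a1 (0.988) and Smdt1 (0.986). Those most like Matn4 were Usp4 (0.961) and Nt5dc1 (0.947), and most like Ucma Ndufs3 and Mrpl48 (both 0.957). Scrg1 was most like Lrpap1 (0.964) and Prg4 (0.963), Matn1 most like Fam20b and Slc43a3 (both 0.96), and Chad most like Acsf2 (0.999) and A630023A22Rik (0.981). Without control library 1 these r were between 0.929 (Matn4 and Nt5dc1) and 0.999 (Chad and Acsf2). The genes named had the highest r of 3228 searched over libraries that include these 5, so high values follow from the choice.

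The rest of the cartilage matrix was read from a list of 33 other genes, 31 of which were tested. At an unadjusted p under 0.05, 4 were lower and 1 was higher in mutant libraries, and none passed the adjusted threshold in edgeR, beside 4.32% lower and 2.89% higher of all genes. The split was 4 lower and 4 higher with DESeq2 (all genes in either direction, 6.07%). Without the filter on low counts it was 5 and 4 (all genes, 8.62%). These fits held 26372 and 26418 genes, more than the 16152 of the main fit, among them genes of low count. The split was 4 and 2 with limma-voom (all genes, 9.14%) and 2 and 5 with scaling to 4 cartilage genes (all genes, 5.65%). The log2 fold change was below 0 for 21 and above 0 for 10, with a median of -0.24. Lower were Vit, a von Willebrand factor A domain protein like the matrilins (168 ± 5.63 and 120 ± 15.2 CPM, SD, edgeR unadjusted p = 0.0186), the collagen IX chains Col9a3 (4539 ± 948 and 2739 ± 382 CPM, unadjusted p = 0.0231) and Col9a2 (4106 ± 848 and 2631 ± 474 CPM, unadjusted p = 0.0426), and Snorc, listed as 3110079O15Rik, a chondrocyte transmembrane proteoglycan (864 ± 136 and 582 ± 66.0 CPM, unadjusted p = 0.0234). Clec3a, a cartilage C-type lectin, was higher (760 ± 131 and 1149 ± 146 CPM, unadjusted p = 0.0251). All mutant libraries were below all controls for 4 genes of the list and above them for 2 (all genes, 5.96% and 5.45%). With control library 1 left out, 6 were lower and 2 higher (all genes in either direction, 14.1%). The split was 1 and 3 without control library 2 (all genes, 5.59%), 3 and 0 without control library 3 (all genes, 3.77%) and 0 and 1 without mutant library 3 (all genes, 5.1%).

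Other main genes of cartilage did not pass the test, Comp being named after its values were seen. Comp, the pentameric matrix protein, had a log2 fold change of -0.40 (edgeR, unadjusted p = 0.233), Acan, the core protein of aggrecan, one of -0.29 (unadjusted p = 0.299) Sox9, the transcription factor of the chondrocyte lineage, one of 0.11 (unadjusted p = 0.636) and Col2a1, the main cartilage collagen, one of 0.27 (unadjusted p = 0.572). Of 5 hypertrophic chondrocyte markers, 2 (Ihh and Pth1r) were lower at an unadjusted p under 0.05, and 1 was lower without control library 1. Col10a1 (log2 fold change -0.92, edgeR unadjusted p = 0.0573) and Mmp13 (-0.36, unadjusted p = 0.322) did not pass. Spp1 ran the other way without passing (0.28, unadjusted p = 0.190). Its 778 to 828 CPM in mutant libraries lay above the 587 to 724 CPM of all controls (all genes, 5.45%). The summed level of the 5 was 1714 to 2628 CPM in control and 1524 to 1763 CPM in mutant libraries. Of 5 chondrocyte markers, 0 were lower or higher. No marker of either list was at 0 in all libraries, and the part of hypertrophic cells in the lower Matn3, Matn4 and Ucma values was not tested.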

How the data were processed

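RNA from discs of 3 control and 3 mutant pools was sequenced as poly(A) libraries in paired ends. The authors deposited raw counts per gene symbol for each library. The study's methods name Cutadapt, FastQC and HISAT2 on GRCm38.88, whereas the submitters' processing notes list STAR 2.5.3a, HTSeq, DESeq2, GRCm38 and mm10, and the strand setting is not given in the sources used here. A deposited table of the authors' own fold changes and p-values was not used. Rows that name no gene (55.8% to 59.6% of reads) were left out.

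Counts were normalized by TMM and tested with the quasi-likelihood test of edgeR 4.0.16 in R 4.3.3, after filterByExpr with a count minimum of 10, with Benjamini-Hochberg adjustment over 16152 genes. Pools with the same number were not treated as pairs, and the p-values measure the spread between these pools only. A gene passed at p under 0.05, before or after adjustment. CPM were computed after TMM scaling, and CPM per kb are divided by the merged length of all annotated exons of a gene. The standard error is the log2 fold change over the square root of F. On simulated data of 15789 genes with the depth and spread of the mutant and control libraries, 19.4% of genes changed 2-fold were recovered at the adjusted and 78.6% at the unadjusted threshold.

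Alternatives were DESeq2 1.42.0, limma-voom (limma 3.58.1) with quality weights, RLE size factors, library sizes only, no filter, scaling to 4 cartilage genes, the replicate block and leaving out each library. Spread, order, marker levels and correlations without a library were added after seeing the data. The members and lists were chosen with earlier results of these data known. Genes named beyond the members are those of the cartilage list with p under 0.05, Comp, Col2a1, Acan, Sox9, the targeted gene Adgrg6 and the scaling gene Hapln1. The annulus and tendon and the hypertrophic chondrocyte markers and genes overlapping a member are also named. So are the 2 genes of at least 50 CPM whose log2 CPM correlated best with each member.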

Additional observations from a re-analysis of the deposited data

How the results depend on the processing

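Of the 8 members, 4 passed the unadjusted threshold, and the number was also 4 with DESeq2, RLE size factors, library sizes only (4 lower and 0 higher) and the replicate block, 5 with limma-voom and without the filter, and 2 with scaling to 4 cartilage genes (2 lower and 0 higher). Leaving out 1 library gave 0 (mutant library 2 or 3) to 3. None passed the adjusted threshold in any of these. The lowest adjusted p over the alternatives was 0.102 for Cytl1, 0.170 for Matn3, 0.202 for Ucma, 0.341 for Matn4 and 0.385 for Matn2. Of the other cartilage genes, 5 passed, against 8 with DESeq2 (all genes, 6.07%) and 9 without the filter (all genes, 8.62%). With a library left out the number was 1 (without mutant library 3, all genes 5.1%) to 8 (without control library 1, all genes 14.1%). Signs turned with a library left out for Matn1 (-0.39 to 0.13, at 0.09 without control library 1, 0.13 without mutant library 2 and 0.02 without mutant library 3), Chad (-0.51 to 0.18) and Scrg1 (-0.28 to 0.001), none of which passed the threshold, and the cause was not tested. Library sizes only moved the median of all genes by -0.12. The pairing of libraries by number is not given by the labels (correlations of same-numbered libraries of 0.16, -0.13 and 0.10), and the replicate block gave 1002 unadjusted calls over all genes against 1164, 2276 without the filter, 1601 with DESeq2, and 618 (without control library 3) to 2427 (without control library 1) with a library left out.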
